A study of Mus musculus with 6 samples.

Results

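Il9, the gene of the cytokine IL-9, and 9 transcription factor genes reported to act on it (Irf4, Batf, Batf3, Irf8, Etv5, Gata3, Stat6, Spi1 and Maf) were followed in cultured mouse Th9 cells. Th9 cells are CD4 helper T cells that make IL-9. These 10 genes were taken by symbol from the 23183 gene symbols of each library, and 9 of them passed the filter on low counts. Both groups held wild-type C57BL/6N cells, purified from the spleen as naive CD4 T cells and driven toward the Th9 state for 3 days. They were stimulated through CD3e and CD28 with IL-4 at 10 ng/ml, TGF-beta1 at 2 ng/ml and an antibody that blocks interferon-gamma. The SPC group also received sphingosylphosphorylcholine (SPC, d18:1), a lysosphingolipid, at 30 µM, and the control group did not. There were 3 control and 3 SPC libraries, numbered 1 to 3 in each group and, per the series text, from 3 independent experiments. The labels do not say how many mice gave the cells of a library, nor what the control wells received in place of SPC.

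IL-9 acts on mast cells, innate lymphoid cells and epithelia and is known for its part in allergic inflammation and in defence against worms. In T cells its gene is switched on where signals from IL-4 and from TGF-beta meet signals from the T cell receptor. IL-4 activates STAT6, which raises GATA3 and IRF4, while TGF-beta acts through SMAD proteins and PU.1. IRF4 and IRF8 bind DNA poorly alone and pair with partners, with BATF or BATF3 and a JUN protein at composite AP-1 sites, or with PU.1 at ETS sites. ETV5 is an ETS factor that acts downstream of STAT6, and c-MAF, the product of Maf, is an AP-1-like factor of IL-4- and IL-10-producing helper cells.

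The stretch just before the start of a gene is where several of these factors can bind, so it is printed for Il9 and, for contrast, for Irf4, the factor with the most counts. Each is the 250 bases before the RefSeq start on the strand of the gene, in build GRCm38.p6. Il9 covers chr13:56482258-56482507 (minus strand) and Irf4 covers chr13:30748983-30749232 (plus strand). Capitals mark matches to the AP-1, STAT, GATA, IRF, ETS and MAF patterns spelled out in the next paragraph.
Il9: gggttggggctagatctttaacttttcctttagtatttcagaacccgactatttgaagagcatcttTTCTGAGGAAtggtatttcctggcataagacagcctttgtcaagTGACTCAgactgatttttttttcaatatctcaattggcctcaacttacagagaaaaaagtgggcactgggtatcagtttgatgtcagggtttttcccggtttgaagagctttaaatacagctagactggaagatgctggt
Irf4: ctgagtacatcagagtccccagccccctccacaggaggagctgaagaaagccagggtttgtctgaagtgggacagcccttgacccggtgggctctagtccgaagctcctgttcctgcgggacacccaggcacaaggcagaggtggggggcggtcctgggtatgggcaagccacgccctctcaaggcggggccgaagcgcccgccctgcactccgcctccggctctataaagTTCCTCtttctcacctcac

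Patterns were searched on both strands, and the share of 32851 RefSeq promoters of that length that hold each is given. Il9 held TGANTCA (AP-1, the site of BATF with JUN proteins, in 6.75% of promoters) at bases -140 to -134, counted back from the start. It held TTC and GAA separated by 4 bases (the spacing bound by STAT6, 5.85%) at -184 to -175. That match contains GAGGAA (a PU.1 core, 23.3%) at -180 to -175. It also held CAGAC (SMAD box, 42.2%) at -135 to -131, which overlaps the AP-1 match, and GGAAAA (NFAT core, 20.4%) on the opposite strand at -228 to -223 and -50 to -45. Il9 had no match to a pair of GAAA separated by 2 bases (paired IRF sites, 2.98%) or to GGAA and GAAA separated by 2 bases (ETS with IRF, 2.30%). It had no TGANTCA directly after GAAA (AP-1 with IRF, 0.1%) or 4 bases after TTTC (also AP-1 with IRF, 0.0974%). Nor did it match TTC and GAA separated by 3 bases (other STAT proteins, 7.02%), GATAA (GATA, 22.6%), AGGAAG (ETS, 29.5%), TGCTGA (MAF, 16.1%) or TATAAA (the TBP site of core promoters, 12.4%). The Irf4 stretch held GAGGAA on the opposite strand at -19 to -14, CAGAC on the opposite strand at -191 to -187, and TATAAA at -26 to -21. GC made up 40.4% of the Il9 bases, with 2 CpG, and 63.6% of the Irf4 bases, with 11 CpG, against medians of 52.4% and 6 over all promoters. Of the 10 genes 8 had a promoter in the table. The AP-1 and STAT6-spaced patterns matched in none of the other 7 genes with an entry, while the other STAT pattern matched in Batf3 and Irf8.

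Library totals lay between 22002050 and 33049997 counts. Markers of T helper cells, Cd3d, Cd3e, Cd3g, Cd4, Cd5, Cd28 and Lck, summed to 1420 to 1490 CPM (read counts scaled to library size with TMM, a trimmed mean of M values) in control and 1470 to 1630 CPM with SPC. Over all 12226 tested genes, 59 were called at an adjusted p under 0.05 (edgeR quasi-likelihood test, Benjamini-Hochberg adjustment), which is 0.483%. With the library number as a block 866 genes were called, or 7.08%. Same-numbered libraries deviated together from their group means, so the blocked result is given wherever it changed a call.

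Il9 was the 1 member called in the group-only test, about 2-fold higher with SPC. The same test called 0 of its 8 tested factors. Of these, 2 had an unadjusted p under 0.05, as had 1250 of all 12226 tested genes. Those 2, Irf4 and Maf, were higher in all 3 SPC libraries than in any control library, as was Il9. With the block Maf rose by 0.90 on the log2 scale, and kept its call in all 3 blocked fits that left out a library number. Over all genes these fits called 2112, 699 and 563 without numbers 1, 2 and 3. Il9 lost its call in the fit without number 1 (edgeR adjusted p = 0.282). Irf4 rose by 0.21 with the block, and its call was lost in 2 of those 3 fits. Batf, Batf3, Irf8, Etv5, Gata3 and Stat6 were not called in either fit, and Spi1 was at the limit of detection. The 10 genes were chosen with results of these data known, so the counts over them are descriptions. In the group-only test 1 of 9 tested members was called higher, against 0.327% of all tested genes, and with the block 3 of 9, against 4.02%. SPC and control libraries did not overlap for 4 of 9 members, against 16.5% of all tested genes. Of these 4, 3 lay above (8.67% of all tested genes) and 1 below (7.80%). In 7 of 9 members all 3 same-numbered pairs moved in the same direction, against 43.8% of all tested genes, with 5 higher (21.8%) and 2 lower (22.0%).

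**Figure D1:**
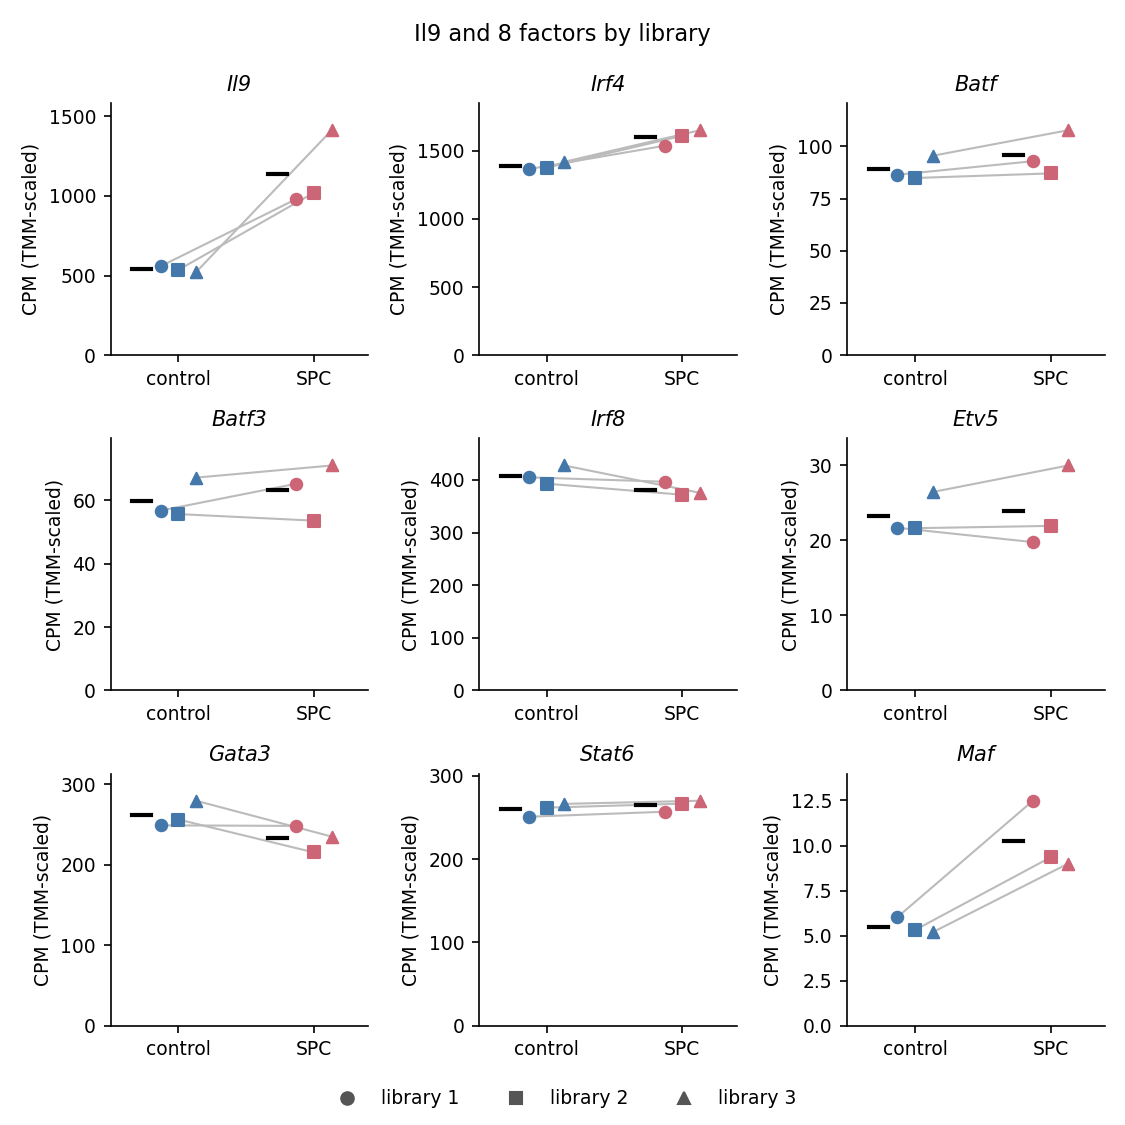
TMM-scaled CPM (vertical axes, each from 0) of Il9 and 8 factors in control (blue) and SPC (red) libraries, with lines joining same-numbered libraries and black bars at the group means (n = 3). Il9, Irf4 and Maf are higher in all 3 SPC libraries than in any control library, while the groups overlap for Batf, Batf3, Irf8, Etv5 and Stat6.

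Il9 (ENSMUSG00000021538, 5 exons, chr13:56479277-56482246 in mm10, as are all gene positions here, minus strand) gave 559, 536 and 522 CPM in control libraries 1, 2 and 3. With SPC the same numbers gave 981, 1020.3 and 1412 CPM. The control libraries lay close together, and SPC library 3 stood above the other 2. The ratios of same-numbered libraries were 1.75, 1.91 and 2.71. The log2 fold change was 1.08 ± 0.13 (SE, edgeR adjusted p = 0.0189), with a 95% interval from 0.78 to 1.38, and 0.777% of tested genes had a log2 fold change at least as high. Il9 lost its call without control library 2 (adjusted p = 0.112) and without SPC library 2 (0.0757), with log2 fold changes of 1.07 and 1.15. Abundant genes were set apart after the values were seen, at a cut of 500 CPM, just below the Il9 control mean of 539 CPM. Of 293 tested genes with at least 500 CPM in control, Il9 was the 1 gene called in the group-only test, which called 59 of all 12226. None of the 293 had a higher log2 fold change there. With the block 12 of the 293 were called, against 866 of all 12226.

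Mast cells can also make IL-9, and the mast cell and basophil markers Cpa3, Mcpt8 and Fcer1a had no count in any library. All 7 mast cell and basophil markers summed to 0.955 to 1.06 CPM without SPC and 1.22 to 1.76 CPM with SPC. Most of that sum came from Hdc (0.668 ± 0.077 and 1.09 ± 0.20 CPM), which was not called in either fit. Of the 4 markers of group 2 innate lymphoid cells, another IL-9 source, Klrg1 had no count, and the list summed to 0.545 to 0.896 CPM without SPC and 0.739 to 1.42 CPM with SPC. Il17rb, the 1 marker of this list above the filter, had 0.335 ± 0.155 CPM without SPC and 0.816 ± 0.335 CPM with SPC. Its log2 fold change was 1.26 ± 0.44 (edgeR adjusted p = 0.351, with the block 0.0767). The part of these markers in the Il9 values was not tested. In a bulk library, more IL-9-producing cells and more Il9 RNA per cell cannot be told apart.

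Irf4 (chr13:30749226-30766976, plus strand), the factor on which Il9 expression in helper T cells depends, had the highest level of the factors per gene and per length. Its control libraries gave 1366, 1376 and 1419 CPM and its SPC libraries 1537, 1609.9 and 1651 CPM. The groups did not overlap, and the ratios of same-numbered libraries were close together, at 1.13, 1.17 and 1.16. SPC over control gave a log2 fold change of 0.21 ± 0.06 (edgeR adjusted p = 0.247, and 0.0184 with the block). The blocked call was lost without both libraries numbered 2 (adjusted p = 0.217) and without both numbered 3 (0.185), with log2 fold changes of 0.21 and 0.20. The group-only 95% interval ran from 0.06 to 0.35, below the lower bound of Il9.

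Irf8 (chr8:120736358-120756694, plus strand), a relative of Irf4 with a central part in dendritic cell and B cell development and a reported one in Th9 cells, gave 405, 393 and 427 CPM without SPC and 397, 372 and 375 CPM with SPC. The groups overlapped, although all 3 pairs were lower with SPC. Its log2 fold change was -0.10 ± 0.07 (edgeR adjusted p = 0.703, 95% interval -0.25 to 0.05). With the block and all libraries it was not called (edgeR adjusted p = 0.297). Without both libraries numbered 1 it was called with the block, at -0.13 ± 0.03 (adjusted p = 0.00270). That fit was added after the data were seen and called 2112 genes over the whole table.

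Elsewhere in the IRF family, Irf5, best known from innate immune signalling, rose from 26.0 ± 1.24 to 47.6 ± 5.51 CPM (SD, n = 3). Its log2 fold change was 0.87 ± 0.10 (edgeR adjusted p = 0.0164). It was 1 of 6 further IRF genes tested, and the other 5 were not called with or without the block.

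Batf (chr12:85686669-85709087, plus strand) and Batf3 (chr1:191097847-191108945, plus strand) encode short AP-1 proteins that bring IRF4 or IRF8 to composite sites. Batf gave 86.4, 84.8 and 95.5 CPM without SPC and 92.9, 87.0 and 108 CPM with SPC. Each SPC library was above its same-numbered control by a ratio of 1.03 to 1.13, and the groups overlapped. For Batf the log2 fold change was 0.11 ± 0.09 (edgeR adjusted p = 0.790, 95% interval -0.11 to 0.32), and it was 0.02 without SPC library 3 and 0.17 without SPC library 2. Batf3, which also directs cross-presenting dendritic cells, gave 56.7, 55.6 and 67.1 CPM without SPC and 65.2, 53.6 and 71.0 CPM with SPC. Its pairs moved both ways. For Batf3 the log2 fold change was 0.08 ± 0.12 (edgeR adjusted p = 0.886, 95% interval -0.19 to 0.35). In both genes libraries numbered 3 were the highest of their group. Batf2 had too few counts to be tested.

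Irf8 and Batf3 are also markers of dendritic cells, so the 7 other dendritic cell markers are given beside them. They summed to 2.63 to 3.68 CPM without SPC and 4.16 to 6.34 CPM with SPC, most of it from Zbtb46, the 1 marker called with the block (log2 fold change 0.65, adjusted p = 0.0427). Flt3 reached at most 0.682 CPM. Clec9a and Clec10a had no count in any library, Itgax and Xcr1 lay at or below 0.273 CPM, and Siglech had a count in 1 library. The part of these markers in the Irf8 and Batf3 values was not tested. B cell markers, a further source of Irf8, summed to 4.55 to 6.50 CPM without SPC and 5.25 to 6.44 CPM with SPC, with Ms4a1 at 0. Most of the sum came from Cd79b (3.33 ± 0.10 CPM without SPC, 4.09 ± 0.49 with SPC) and Ebf1 (2.09 ± 0.84 and 1.69 ± 0.27). Neither was called in either fit.

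Maf (chr8:115682942-115707794, minus strand) showed the largest fold change of the factors, from a low level. Its control libraries held 176, 160 and 114 counts (6.02, 5.31 and 5.18 CPM) and its SPC libraries 411, 244 and 207 counts (12.5, 9.34 and 8.996 CPM). All SPC libraries lay above all controls, and SPC library 1 was the highest. The same-numbered ratios were 2.07, 1.76 and 1.74, and the pair with the smallest Maf ratio, number 3, had the largest Il9 ratio. The log2 fold change was 0.90 ± 0.16, which just missed the threshold in the group-only test (edgeR adjusted p = 0.0538, 95% interval 0.54 to 1.27). It was called with the block (0.90 ± 0.11, adjusted p = 0.00094), and 2.08% of tested genes had a larger absolute log2 fold change. In DESeq2 (adjusted p = 0.00037) and without the filter on low counts (edgeR adjusted p = 0.0177) it was called as well. Maf was not called with RLE or upper quartile scaling (edgeR adjusted p = 0.0526 and 0.0568). Nor was it called in any group-only fit that left out libraries (edgeR adjusted p from 0.0548 to 0.762). Reads of Maf and of Gm15655, which runs antisense to it and shares 5.34% of its exonic bases, could not be told apart if strand was not used in counting. Gm15655 is not among the counted gene symbols.

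Among the 3 further MAF genes tested, Maff, a small MAF protein gene without an activation domain, had 13.6 ± 1.14 CPM without SPC and 20.3 ± 3.48 CPM with SPC. Its log2 fold change was 0.58 ± 0.14 (edgeR adjusted p = 0.126, and 0.00273 with the block). Mafg and Mafk, its close relatives, had log2 fold changes of 0.14 and 0.15 and were not called in either fit.

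Gata3 (chr2:9857078-9890034, minus strand), the main Th2 factor, gave 249, 256 and 279 CPM without SPC and 248, 215 and 235 CPM with SPC. All SPC libraries lay below all controls, narrowly: SPC library 1 and control library 1 were nearly equal, with a ratio of 0.997, while the pairs numbered 2 and 3 both had a ratio of 0.84. Gata3 had a log2 fold change of -0.17 ± 0.08 (edgeR adjusted p = 0.542, and 0.132 with the block). Other annotated genes share 5.83% of its exonic bases. Without both libraries numbered 1 Gata3 was called with the block, at -0.25 ± 0.03 (adjusted p = 2.6e-06). That fit was added after the data were seen and called 2112 genes over the whole table, against 866 with the block and all libraries. Stat6 (chr10:127642986-127660957, plus strand), the transducer of the IL-4 signal, had the log2 fold change nearest 0 of the tested factors in the group-only test, while with the block Etv5 was nearer (0.0225 against 0.0269). It gave 251, 262 and 266 CPM without SPC and 257, 267 and 270.0 CPM with SPC, and pair ratios lay between 1.01 and 1.02. Its log2 fold change was 0.03 ± 0.06 (edgeR adjusted p = 0.941), and its 95% interval, -0.12 to 0.17, excludes a change as large as that of Il9 in either direction. The Stat6 exons share 0.91% of their bases with Nab2 on the opposite strand, and Nab2 itself had a log2 fold change of 0.03 ± 0.08.

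Of the other STAT genes, Stat4, which transduces IL-12, had 27.9 ± 1.94 CPM without SPC and 18.0 ± 3.07 CPM with SPC (log2 fold change -0.64 ± 0.13, edgeR adjusted p = 0.0821, with the block 0.00155). Gata1 was the other GATA gene above the filter, with 1.13 CPM without SPC and 0.87 CPM with SPC (edgeR adjusted p = 0.722).

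Etv5 (chr16:22381309-22439719, minus strand) gave 21.7, 21.6 and 26.4 CPM without SPC and 19.7, 21.9 and 29.9 CPM with SPC. Its pairs moved both ways and libraries numbered 3 were again the highest. Etv5 had a log2 fold change of 0.04 ± 0.16 (edgeR adjusted p = 0.967, 95% interval -0.32 to 0.40), and its sign turned without SPC library 3 (-0.16 ± 0.13). Of its 50-base windows, 26.8% also occur in Gm4798, a processed pseudogene that is not among the counted gene symbols. How reads of the shared sequence were counted was not tested. Spi1 (chr2:91082390-91115756, plus strand), which encodes PU.1, had 5 reads in all libraries together: 1, 2 and 0 in control and 1, 0 and 1 with SPC. A count of 0 allows up to 3 reads, which is 0.137 CPM in control library 3 and 0.115 CPM in SPC library 2. No difference in Spi1 could be detected at this depth. Spib, the nearest relative of Spi1, stood at 0.241 ± 0.076 CPM without SPC and 0.698 ± 0.195 CPM with SPC (edgeR adjusted p = 0.161, with the block 0.0455).

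**Figure D2:**
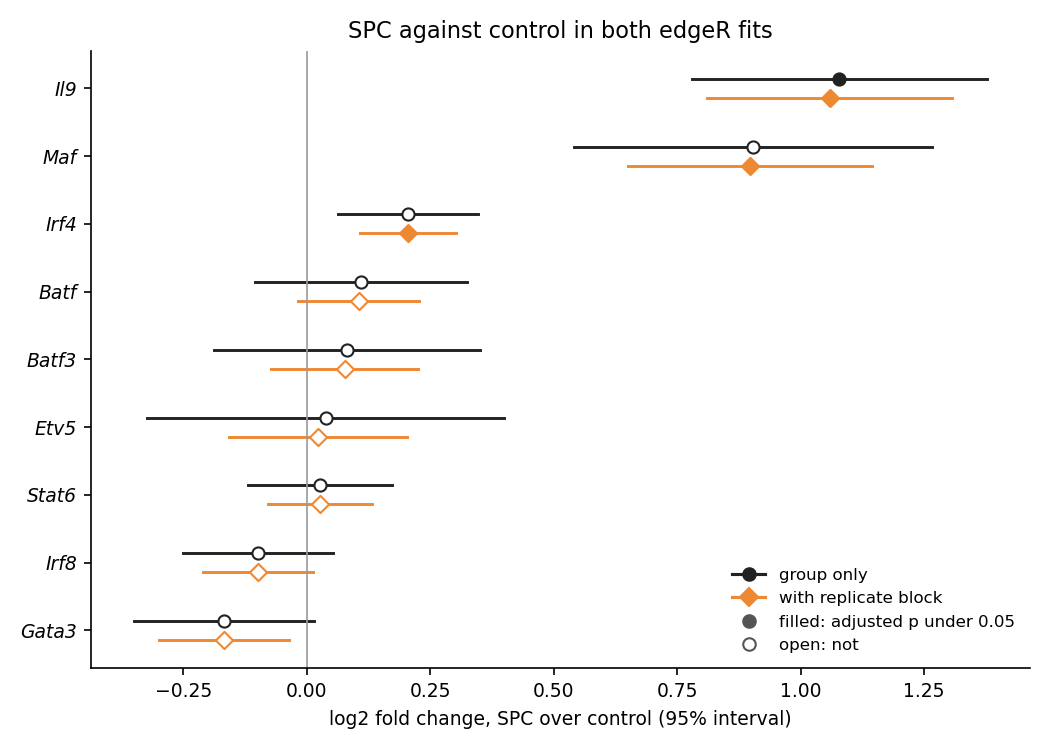
Log2 fold change of SPC over control (horizontal axis) with 95% intervals for the 9 tested members, in the group-only edgeR fit (black circles) and in the fit with the library number as a block (orange diamonds), filled where the adjusted p is under 0.05. Il9 is filled in both fits, Maf and Irf4 with the block, and the remaining 6 intervals of the group-only fit include 0.

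Il9 was then set against each factor in the same library, a ratio that does not depend on the scaling of the libraries. The ratio of Il9 to Irf4 was 1.81-fold higher with SPC, to Batf 1.94-fold, to Batf3 1.98-fold, to Stat6 2.05-fold, to Etv5 2.05-fold, to Irf8 2.23-fold and to Gata3 2.34-fold. For each of these 7 factors all 3 SPC libraries lay above all 3 control libraries. Il9 alone already separated the groups (522 to 559 CPM in control, 981 to 1412 CPM with SPC). A ratio of Il9 to a gene that changed little separates them for that reason, so the separation does not set these factors apart. Ratios to other genes were not tested. The exact two-sided permutation p was 0.10, the smallest that 3 against 3 libraries can give, and 0.114 after Benjamini-Hochberg adjustment over the 8 factors. The permutation shuffled all 6 libraries freely and did not use their pairing by number. The ratio of Il9 to Maf was 1.13-fold higher, with overlapping groups (exact permutation p = 0.70), and its direction turned without SPC library 3. All 8 ratios share the Il9 values of the same 6 libraries.

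**Figure D3:**
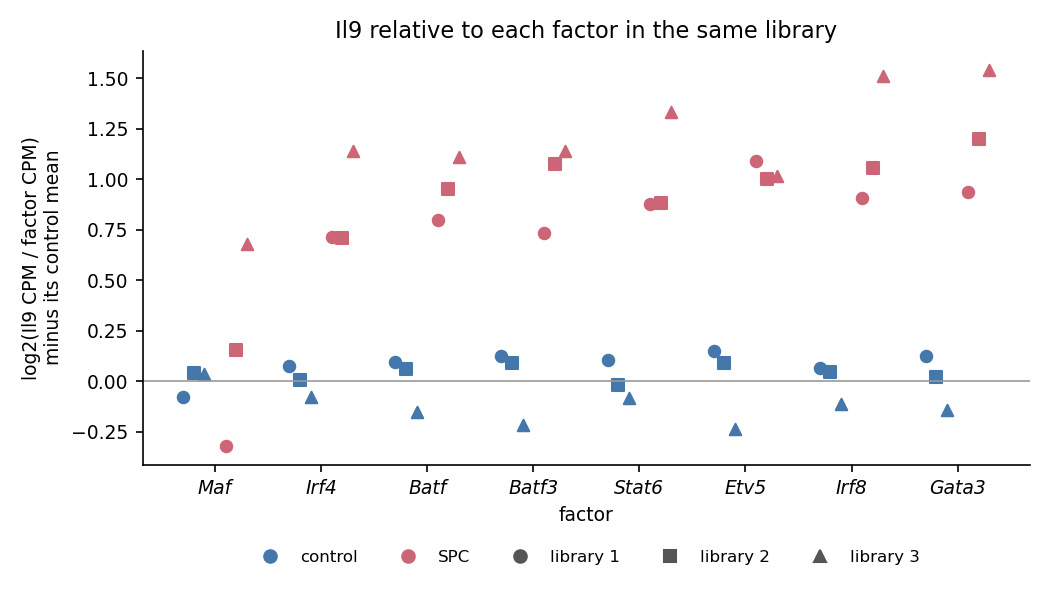
Log2 ratio of Il9 CPM to the CPM of each of 8 factors in the same library, minus the mean of the 3 control libraries (vertical axis), for control (blue) and SPC (red) libraries with marker shapes for library numbers 1 to 3. The SPC libraries lie above all controls for 7 factors, and for Maf the groups overlap.

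Levels of different genes were compared as CPM per kb of exonic length. Il9, with 536 exonic bases, led the members with 1005 ± 35.0 CPM per kb in control (SD, n = 3) and 2123 ± 445 with SPC. It ranked 24th among tested genes with a length in control and 5th with SPC, behind Eef1a1, Actb, Ptma and Rplp1, genes of translation, the cytoskeleton and growth. Irf4 followed with 283 ± 5.76 CPM per kb in control and 326 ± 11.7 with SPC. In control Gata3 (65.7 ± 4.01), Batf (63.2 ± 4.08), Stat6 (59.0 ± 1.80) and Irf8 (57.9 ± 2.49) came next, and the library ranges of neighbours in that order overlapped. With SPC the order was Batf (68.2 ± 7.58), Stat6 (60.1 ± 1.56), Gata3 (58.5 ± 4.17) and Irf8 (54.0 ± 1.90). Batf3 stood below them at 37.5 ± 3.98 in control and 39.6 ± 5.55 with SPC. Etv5, at 5.66 ± 0.67 in control and 5.82 ± 1.31 with SPC, was near the median of all tested genes, 6.23 and 6.25. Maf was far below it at 0.668 ± 0.055 in control and 1.25 ± 0.233 with SPC. Per length of the longest transcript Irf8 stood at 118 ± 5.06 CPM per kb in control, above Batf at 93.1 ± 6.01, so the place of Irf8 rests on the gene model used.

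**Figure D4:**
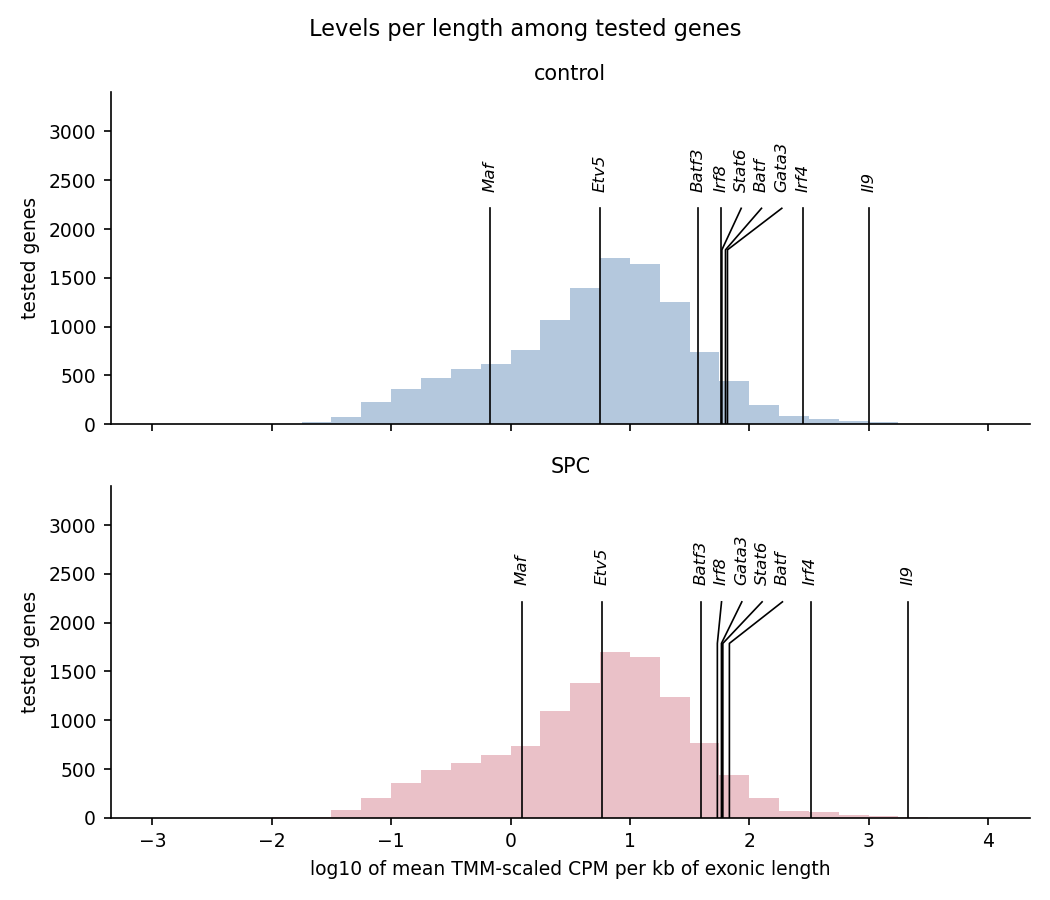
Histograms of all tested genes with a length by the log10 of mean TMM-scaled CPM per kb of exonic length (horizontal axis), in control (top) and with SPC (bottom), with lines at the 9 tested members. Il9 and Irf4 sit in the upper tail in both groups, Il9 at 1005 and 2123 CPM per kb, and Maf sits below the medians of 6.23 and 6.25.

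The genes whose pattern over the 6 libraries was most like that of Il9 were found among the 9458 tested genes whose mean CPM reached 5. The measure was the root mean square difference of log2 CPM after each gene was centred on its own mean. The nearest were Fnbp1l, a membrane-binding adaptor of the actin cytoskeleton (0.096), Tnfrsf26, a TNF receptor family gene (0.138), and Rora, a nuclear receptor gene (0.139). The predicted gene Gm16712 (0.151) and Lipg, which encodes endothelial lipase (0.154), followed. Rora had 32.5 ± 1.36 CPM without SPC and 59.3 ± 8.55 CPM with SPC. Of the factors Maf was the nearest, in place 54 (0.304), then Irf4 in place 536 (0.453) and Batf in place 1081 (0.492). Irf8 and Gata3 were the farthest, in places 7230 and 8394. The tested factors stood in the same order by this measure as by log2 fold change, so their places largely restate those values. The same libraries and scaling underlie all of these values, and 2 of the 5 genes were also among the nearest 5 when same-numbered log2 ratios were compared.

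The genome around Il9 was examined out to 500 kb from its start. Of 12 annotated genes there whose symbols were in the files, 3 were above the filter and 5 had no count in any library. Fbxl21, an F-box protein gene whose start lies 40.2 kb from that of Il9, gave 1.51, 1.29 and 2.18 CPM without SPC and 2.37, 3.48 and 3.48 CPM with SPC. All its SPC libraries lay above its controls (log2 fold change 0.91 ± 0.26, edgeR adjusted p = 0.224, with the block 0.0244). Smad5, a transducer of BMP signals, and H2afy, a macroH2A histone gene, were far more abundant and had log2 fold changes of -0.06 ± 0.09 and -0.01 ± 0.07. Neither was called in either fit.

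The other genes of the pathways that lead to Il9, and of the families of its factors, were taken from 14 lists, chosen with results of these data known. Of their 127 genes that are not members, 112 were tested. In the group-only test 2 were called higher and 0 lower, 1.79%, against 0.483% of all tested genes. With the block 18 were higher and 17 lower, 31.2%, against 7.08% of all tested genes. Their median log2 fold change was -0.0023, beside 0.0019 over all tested genes. At an unadjusted p under 0.05 there were 1250 of all tested genes.

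**Figure D5:**
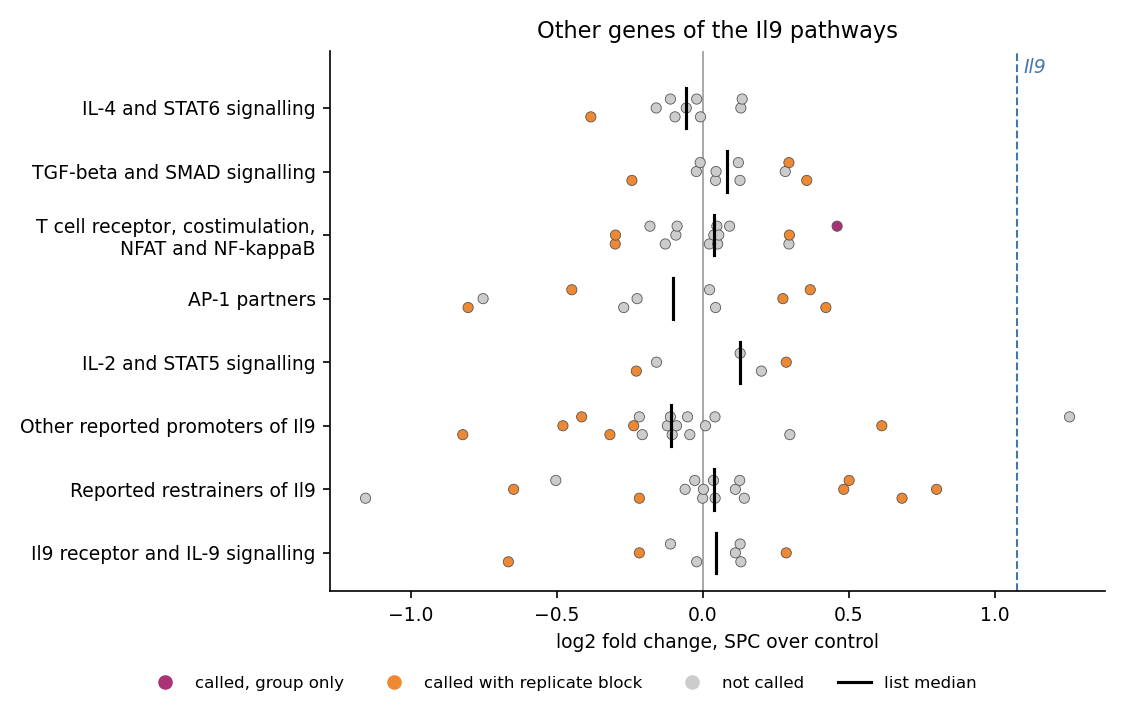
Log2 fold change of SPC over control (horizontal axis) for tested genes of 8 lists, members left out, coloured by whether they were called in the group-only test, with the block alone or in neither, with list medians as black bars and Il9 as a dashed line at 1.08. Every list median lies between -0.11 and 0.13.

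In the IL-4 arm, 9 genes were tested and none was called. With the block 1 was lower, Socs1, a feedback inhibitor of JAK kinases, with 122.8 ± 3.39 CPM without SPC and 94.1 ± 3.09 CPM with SPC (log2 fold change -0.38 ± 0.07, edgeR adjusted p = 0.0514, with the block 0.00226). In the TGF-beta arm none of 10 was called, and the block fit called 2 higher and 1 lower. The receptor gene Tgfbr1 and the inhibitory Smad7 had log2 fold changes of 0.30 ± 0.08 and 0.36 ± 0.10 (with the block adjusted p = 0.00656 and 0.0146). The signal transducer Smad3, which acts at Il9, had -0.24 ± 0.13 (with the block adjusted p = 0.0469).

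Of 15 genes of T cell receptor, costimulatory, NFAT and NF-kappaB signalling, Nfkb2 rose in the group-only test, by 0.46 ± 0.07 on the log2 scale (edgeR adjusted p = 0.0358). With the block Nfkb2 and Relb, which form the noncanonical NF-kappaB dimer, were higher, Relb by 0.30 ± 0.08 (adjusted p = 0.0151). Tnfrsf4 and Tnfrsf18, the genes of the receptors OX40 and GITR that can promote Il9, were lower, with log2 fold changes of -0.30 ± 0.11 and -0.30 ± 0.15 (with the block adjusted p = 0.0123 and 0.0235). Tnfsf4, which encodes the OX40 ligand and belongs to the further promoters of Il9, stood at 10.7 ± 2.81 CPM without SPC and 16.5 ± 2.98 CPM with SPC (0.61 ± 0.20, with the block adjusted p = 0.00612).

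Of 10 AP-1 partner genes the group-only test called none, and the block fit called 3 higher and 2 lower. Bach2, a repressor that competes for AP-1 sites, had 136.8 ± 11.9 CPM without SPC and 183 ± 17.7 CPM with SPC (0.42 ± 0.10, with the block adjusted p = 0.00283). Jun and Jund, partners of BATF, had 0.37 ± 0.10 and 0.28 ± 0.14 (with the block adjusted p = 0.00735 and 0.0299). Fosl2, which can compete with BATF, stood at 80.0 ± 22.0 and 45.9 ± 12.8 CPM (-0.80 ± 0.23, with the block adjusted p = 5.3e-05), and Atf3 had -0.45 ± 0.22 (with the block adjusted p = 0.00057). The groups overlapped for Fosl2, Atf3 and Jund, as they did for Smad3 and Tnfrsf18 above.

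In the IL-2 arm none of 5 was called. With the block Stat5a, which binds the Il9 promoter, was higher (0.29 ± 0.09, adjusted p = 0.00849), and Il2ra, the alpha chain of the IL-2 receptor, was lower (-0.23 ± 0.11, adjusted p = 0.0344). Of 18 further genes reported to promote Il9, none was called, and with the block 1 was higher, Tnfsf4, and 5 were lower. These 5 were Ets1 (-0.41 ± 0.09), Hif1a (-0.48 ± 0.20), Pparg (-0.82 ± 0.20), Rbpj (-0.32 ± 0.09) and Bhlhe40 (-0.24 ± 0.13), with blocked adjusted p between 0.00056 and 0.0123. Rbpj, the nuclear partner of Notch, had 1263 ± 87.5 CPM without SPC and 1013 ± 91.7 CPM with SPC. Hif1a and Bhlhe40 overlapped between the groups.

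Of 17 genes reported to restrain Il9, none was called, and the block fit called 4 higher and 2 lower. Foxp3, which directs regulatory T cells, had a log2 fold change of 0.68 ± 0.12 (edgeR adjusted p = 0.0577, with the block 0.00087). Bcl6, the follicular helper repressor, had 3.92 ± 1.14 CPM without SPC and 6.87 ± 1.01 CPM with SPC (0.80 ± 0.22, with the block adjusted p = 0.00653). Id3, an inhibitor of E proteins, had 0.50 ± 0.14 (with the block adjusted p = 0.0406). Socs3 and Stat3 had -0.65 ± 0.31 and -0.22 ± 0.15 (with the block adjusted p = 0.00328 and 0.0188), and both overlapped between the groups.

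IL-9 itself signals through Il9r and the common gamma chain. Il9r had 4.76 ± 0.93 CPM without SPC and 2.99 ± 0.38 CPM with SPC, and all SPC libraries were below all controls (log2 fold change -0.67 ± 0.20, edgeR adjusted p = 0.241, with the block 0.0187). Of the 8 tested genes of this list the group-only test called none, and the block fit called 1 higher (Stat5a) and 2 lower (Il9r and Stat3).

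In the ETS family, 17 genes other than the members were tested and none was called, while the block fit called 3 higher and 2 lower. Beside Spib and Ets1 these were Elk3 (0.28 ± 0.09, with the block adjusted p = 0.0130), Etv4, a close relative of Etv5 (0.41 ± 0.23, 0.0473), and Elf1 (-0.30 ± 0.10, 0.0122). Etv4 stood at 8.17 ± 1.70 CPM without SPC and 10.9 ± 3.34 CPM with SPC, with overlapping groups. Ets1, an ETS factor of T cells, stood at 542 ± 53.9 CPM without SPC and 407 ± 31.5 CPM with SPC.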

How the data were processed

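Each library has 1 deposited file, in which the authors gave unnormalised read counts by gene symbol. TopHat and the mm10 build were used, per the submitters' processing notes. Not given in the sources used here were the version of TopHat, the program and annotation used to count reads, and whether strand was used. Libraries were made with a directional kit from 1.3 µg of total RNA, per the labels' protocols.

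Counts were tested in R 4.3.3 with edgeR 4.0.16 (quasi-likelihood F test, robust dispersions, TMM scaling, group as the single term). The filter filterByExpr (minimum count 10, minimum total 15) kept 12226 genes, and p-values were adjusted over all of them by the Benjamini-Hochberg method. SEs were obtained from the fold change (log2) and the F statistic, as their ratio with the root of F. Alternatives were RLE and upper quartile scaling, DESeq2 1.42.0, no filter, a replicate block, and leaving out each library and each library number. The block combined with leaving out a number was added after the data were seen. Deviations of same-numbered libraries from their group means correlated at 0.413, 0.208 and 0.508 across tested genes, all above the limit of 0.1. Differently numbered libraries correlated at -0.492 to 0.0742. Deviations within a group sum to 0 for each gene, so these correlations are not independent and do not prove the pairing. The blocked fit takes the pairing by number as given. No 2 libraries of a group agreed within counting noise (chi-square per degree of freedom 4.82 to 34.8). The p-values measure the spread between these libraries.

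Gene positions and lengths came from GENCODE M21 (GRCm38, which is mm10), by symbol, and 96.2% of tested genes had a length. Likeness to Il9 used log2 CPM with a prior count of 2. Named genes are the 10 members, list genes called in either fit, the tested neighbours of Il9 within 500 kb and the 5 genes most like it, and the remaining named genes were chosen after their values were seen. Of these, 1 list gene called with the block is not reported here. The members, lists and rules were chosen with earlier results of these data known. The group-only edgeR test was checked on simulated counts that held no effect of library number. The blocked fit and the permutation test were not checked in this way.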

Additional observations from a re-analysis of the deposited data

How the results depend on the processing

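The log2 fold change of Il9 stayed above 0 under all 17 alternatives, between 0.87 and 1.20 (0.89 to 1.17 when 1 library was left out). With the replicate block it was 1.06 and still called. Its call was lost without control library 2, without SPC library 2, without both libraries numbered 1 (1.20, adjusted p = 0.0637), without both numbered 2 (1.16, 0.328) and with the replicate block without both numbered 1 (1.18, 0.282). The number of members called was 1, and with DESeq2 or no filter it was 2, with the replicate block 3. It lay between 0 and 1 when libraries were left out, and was 4, 2 and 2 with the block without numbers 1, 2 and 3. Genes called over the whole table numbered 59 (0.483% of tested genes), but 279 with DESeq2, 147 with no filter and 866 (7.08%) with the replicate block. They numbered 0 to 66 when libraries were left out, with 6 without control library 2, 6 without SPC library 2, and 15, 0 and 38 without both libraries numbered 1, 2 and 3. With the block they numbered 2112, 699 and 563 without numbers 1, 2 and 3. Fits that called more genes over the whole table called as many members or more, so the number of members called follows the fit used. Etv5 turned sign without control library 1 (-0.00), control library 2 (-0.01), SPC library 3 (-0.16), both numbered 3 (-0.0560) and, with the block, both numbered 3 (-0.0571), and it ranged from -0.16 to 0.16 when 1 library was left out. Batf3 turned without SPC library 3 (-0.00888) and otherwise reached 0.19 when 1 library was left out. The log2 difference of Il9 relative to Maf, 0.17, turned without SPC library 3 (-0.0822) and without both numbered 3 (-0.0634), and reached 0.42 without SPC library 1. The cause of these changes was not tested. Spi1 had 5 reads in all libraries together, and Maf rests on 114 to 411 reads per library.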
